A study of Mus musculus with 9 samples.

Results

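Immediate early genes are described here in mouse embryonic stem cells (mESC) kept under kinase inhibitors, released into serum, or released into serum with a nitric oxide (NO) donor. The 10 genes were *Fos*, *Fosb*, *Fosl1*, *Jun*, *Junb*, *Egr1*, *Egr2*, *Ier2*, *Ier3* and *Atf3*, taken by symbol from the 29069 genes of the deposited expression table. All 10 were present, and 9 of them were tested together with the other genes whose mean exceeded 5, 18156 genes in all. *Egr2* lay below that mean and was not tested.

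Transcripts were measured by ribosome-depleted total RNA-Seq, with 3 replicates in each of 3 media and 9 samples in all. The cells were mES-D3, a mouse embryonic stem cell line grown without a feeder layer at passages p5-p8, and every sample was collected after 24 h of culture. Ground state medium (GS) was serum-free NDiff N2B27 with 1 µM PD0325901, which inhibits MEK, 3 µM CHIR99021, which inhibits GSK-3, and 20 ng/mL leukemia inhibitory factor (LIF). Spontaneous differentiation medium (DM) was DMEM with 10% fetal bovine serum and held neither inhibitor nor LIF. NO medium was DM to which 250 µM of the NO donor DETA/NO had been added. GS and DM therefore differed in inhibitors, LIF, serum and basal medium at once, and the parts of these in a difference cannot be told apart. NO and DM differed in the donor alone. Each sample came from its own dish of 1 cell line, but the labels do not call the replicates separate experiments, so that p-values measure the spread between these samples.

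Immediate early genes are transcribed within minutes of a stimulus without new protein synthesis, and most of their transcripts decay quickly. Growth factors in serum reach them through RAF, MEK and ERK kinases and the serum response factor with its ETS partners, whereas stress reaches them mainly through JNK and p38 kinases and ATF/CREB factors. FOS and JUN proteins pair to form the AP-1 transcription factor, EGR proteins are zinc finger factors, and ATF3 is a stress-inducible partner of JUN proteins. In mESC, MEK inhibition holds ERK signalling low and favours the naive state. A sample at 24 h shows the level long after a change of medium and not the early peak.

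In NO, the transcripts of *Fos*, *Fosl1*, *Jun* and *Atf3* rose over GS, whereas that of *Ier3* fell. *Fos*, *Jun* and *Atf3* also rose over DM, and *Ier3* fell again. A gene was called changed at a Benjamini-Hochberg adjusted p under 0.05 over all genes tested and at least a 2-fold change, in a limma fit of log2(value + 1) to all 9 samples, and each fold change below is on that scale. In NO against GS, 4 of the 9 genes tested were called higher, where 10.1% of all genes tested were, and 1 was called lower, where 1.64% were. In NO against DM, 3 were called higher against 6.78% of all genes, and 1 was called lower against 1.77%. In DM against GS, 0 were called in either direction by limma, where 2.94% of all genes were called higher and 1.27% lower. The fit held 1 spread per gene for the 3 media, so the SE of DM against GS also carries the spread in NO. With only the 6 samples compared, 1 was called (*Egr1*), where 908 of all genes tested were. The adjusted p was then 0.103 for *Fos*, 0.224 for *Fosl1*, 0.743 for *Jun* and 0.229 for *Atf3* (limma), none of them called. At an unadjusted p under 0.05, 3 of the 9 were higher in DM than in GS (*Fosb*, *Egr1* and *Ier3*), where 11.2% of all genes were. The F test over the 3 media called 5 of the 9, against 23.3% of all genes. The median log2 fold change of the 9 was 0.72 in DM against GS, 1.27 in NO against GS and 0.19 in NO against DM, whereas the median over all genes tested was within 0.02 of 0 in each. With NO replicate 2 left out, a sample described below, the median of the 9 was 0.79 in NO against GS and turned to -0.17 in NO against DM. Quantile normalisation took the median over all genes in NO against GS from -0.02 to -0.12, the largest shift of the 3 comparisons. The comparisons share samples, so their results are not independent.

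**Figure D1:**
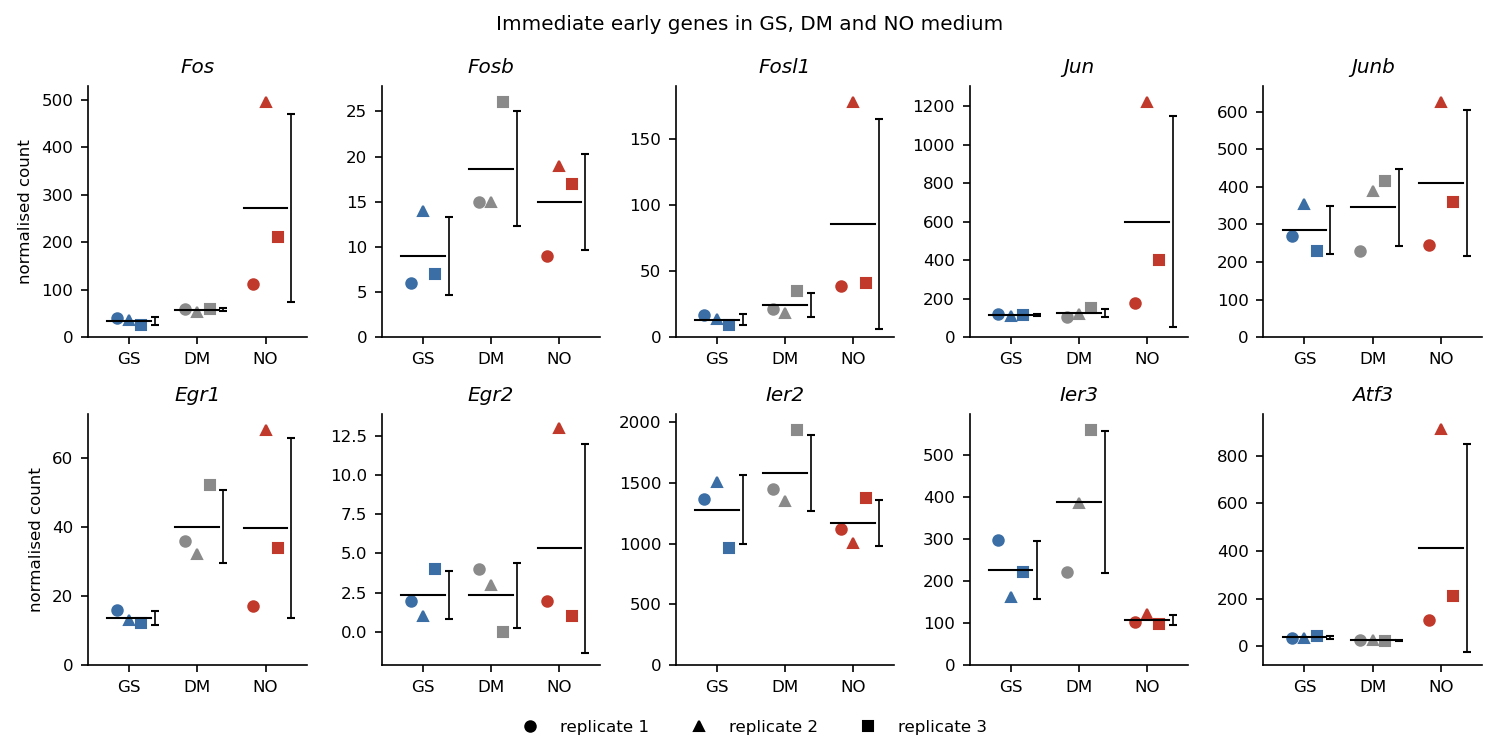
Normalised counts (vertical axes, a separate linear scale for each gene) of the 10 immediate early genes in GS, DM and NO. Points are samples with a marker for each replicate number, horizontal lines are means and bars are ± SD (n = 3). NO replicate 2 is the highest of the 9 samples in *Fos*, *Fosl1*, *Jun*, *Junb*, *Egr1*, *Egr2* and *Atf3*, and the 3 NO samples of *Ier3* lie below all others.

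NO replicate 2 stood apart from the other NO samples. Over 17631 genes with a single highest sample, it held the highest value in 29.6%, against 3.49% for NO replicate 1 and 4.74% for NO replicate 3, and 5.45% to 19.2% for the GS and DM samples. Rank correlation between NO replicates ranged from 0.958 to 0.985, and it was 0.979 to 0.991 within DM and GS. Depth, estimated from the regular gaps among low values, was 14302054 to 27061091 assigned reads per sample, with 14538542 in NO replicate 2, close to the 14302054 of NO replicate 3. The NO differences of the 9 genes tested are therefore also given without it, as are the counts of the gene lists. The pluripotent cell markers (10 of 10 tested) summed to 125681 to 128810 among GS samples, 103928 to 113591 among DM samples and 66761 to 107718 among NO samples. The lowest NO sum was that of NO replicate 2, and the highest, within the DM range, was that of NO replicate 1. Of the 10, *Tfcp2l1* alone was called, lower in DM and in NO than in GS, where 1.27% and 1.64% of all genes were. It measured 30965, 31982 and 30213 in GS, 11814, 12742 and 9340 in DM, and 16478, 10479 and 12991 in NO. In NO against DM, 0 were called. In bulk RNA, fewer cells of a type and less RNA per cell cannot be told apart.

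*Fos* encodes c-FOS, the prototype immediate early protein and an AP-1 subunit that must pair with a JUN protein to bind DNA. Its normalised counts were 41, 36 and 26 in GS, 60, 54 and 59 in DM, and 112, 495 and 211 in NO, in the order of the replicates. The groups did not overlap: every DM sample lay above every GS sample, and every NO sample above every DM sample. The means were 34.3 ± 7.64, 57.7 ± 3.21 and 273 ± 199 (SD, n = 3). The log2 fold change of NO against GS was 2.72 ± 0.43 (SE), 6.57-fold (limma, adjusted p = 0.00175). Against DM it was 1.96 ± 0.43, 3.89-fold (limma, adjusted p = 0.0142). DM against GS, at 0.75 ± 0.43, did not pass (limma, adjusted p = 0.363). When NO replicate 2 was left out, *Fos* was still called over GS (2.16, limma adjusted p = 0.00126) and over DM (1.401, adjusted p = 0.0216). Without DM replicate 2, the call over DM was just lost (limma, adjusted p = 0.0501). *Fos* lies at chr12:85473890-85477273 (plus strand, GRCm38), in 4 exon blocks with no exon of another annotated gene on them.

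*Fosl1* encodes FRA1, a FOS family member without the strong activation domain of c-FOS, whose transcription is itself driven by AP-1 and ERK. It measured 17, 14 and 9 in GS, 21, 18 and 35 in DM, and 39, 178 and 41 in NO. Its 3 media did not overlap either, but NO replicates 1 and 3 were only a little above the highest DM sample. NO exceeded GS by 2.27 ± 0.54 on the log2 scale (limma, adjusted p = 0.0134), and by 1.56 without NO replicate 2 (adjusted p = 0.0252). That call was lost without GS replicate 3 (limma, adjusted p = 0.0611). Against DM the difference was 1.44 ± 0.54 and did not pass (limma, adjusted p = 0.0945), and without NO replicate 2 it was 0.73 (adjusted p = 0.316). Without NO replicate 1 it passed, at 1.81 (limma, adjusted p = 0.0383), as it did with sample weights, at 1.04 (adjusted p = 0.0159). Exons of *Fosl1* (chr19:5447547-5455946, plus strand) overlap *Ccdc85b* on the other strand. *Ccdc85b* measured 62, 90 and 44 in GS, 113, 112 and 129 in DM, and 62, 73 and 73 in NO, without the high value of *Fosl1* in NO replicate 2.

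*Fosb*, the FOS family gene best known for its long-lived splice form in neurons, was near the lower end of detection. It measured 6, 14 and 7 in GS, 15, 15 and 26 in DM, and 9, 19 and 17 in NO. All DM samples lay above all GS samples, though by a single unit at the closest, and NO overlapped both. DM against GS was 1.01 ± 0.46 on the log2 scale, with an unadjusted p of 0.0465 in limma and an adjusted p of 0.243. NO against DM was -0.31 (limma, adjusted p = 0.679), and *Fosb* was called in none of the 3 comparisons. In the fit without NO replicate 2, NO against DM was -0.51 and NO against GS 0.51, neither called.

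*Jun* encodes c-JUN, the AP-1 subunit that is activated by JNK and that drives its own promoter. Its counts were 121, 108 and 116 in GS, 107, 121 and 151 in DM, and 179, 1219 and 399 in NO. GS and DM overlapped throughout, and every NO sample was higher than all 6 others, from barely so in replicate 1 to the highest by far in replicate 2. The means were 115 ± 6.56, 126 ± 22.5 and 599 ± 548 (SD, n = 3). NO against GS gave a log2 fold change of 1.94 ± 0.50 (limma, adjusted p = 0.0195). NO against DM gave 1.82 ± 0.50, 3.53-fold (limma, adjusted p = 0.0343). DM against GS gave 0.12 with a 95% interval of -0.98 to 1.22 (limma, adjusted p = 0.927), an interval that also carries the wide spread in NO. Without NO replicate 2, *Jun* was 1.21 above GS (limma, adjusted p = 0.02) and 1.09 above DM (adjusted p = 0.0491), and without NO replicate 1 it was 2.47 above DM (adjusted p = 0.00102). The call over DM was kept in 10 of 20 alternatives. It was lost without any of the GS samples (limma, adjusted p = 0.0528, 0.0548 and 0.0544 for replicates 1, 2 and 3), without any of the DM samples (0.1, 0.0889 and 0.0633) and without NO replicate 3 (0.0754). It was also lost with only the 6 samples compared (limma, adjusted p = 0.0884), without the mean-variance trend (0.086) and with no minimum mean (0.0517). The call over GS was kept in 15 of 19 alternatives. It was lost without any of the GS samples (limma, adjusted p = 0.0533, 0.0649 and 0.0642) and without the trend (0.0567). *Jun* is a gene of 1 exon (chr4:95049034-95052222, minus strand) that an antisense gene, listed as *BC042782*, overlaps. Use of the strand in counting was not stated. *BC042782* measured 13, 5 and 8 in GS, 11, 7 and 2 in DM, and 10, 31 and 9 in NO, so it too was highest in NO replicate 2.

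*Junb* encodes a JUN family member that restrains c-JUN and that is itself a serum-induced immediate early gene. It measured 270, 355 and 230 in GS, 229, 390 and 417 in DM, and 245, 625 and 360 in NO. The 3 media overlapped, and no comparison passed. NO against DM was 0.19 on the log2 scale with a 95% interval of -0.53 to 0.91 (limma, adjusted p = 0.736), and NO against GS was 0.44 (adjusted p = 0.368). With NO replicate 2 left out, NO against DM was -0.17 (limma, adjusted p = 0.787) and NO against GS 0.08 (adjusted p = 0.883). *Junb* shares exon sequence with *Prdx2* on the other strand, an abundant gene that measured 1637 in NO replicate 2 and 2319 to 5060 in the others.

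Levels per kb of exon describe the JUN and FOS family transcripts by gene, not the AP-1 protein. Lengths joined the exons of all annotated transcripts of a gene, and overlaps were not looked up for *Jund* and *Fosl2*. The lengths kept the exon stretches of *Jun*, *Junb* and *Fosl1* that other genes overlap. Reads there may not have been counted, so the levels of these genes per kb may be too low. *Jund*, the JUN gene that resting cells express and that is not among the 10, gave 74.6 ± 3.09% of the JUN family transcripts per kb in GS (SD, n = 3), compared with 72.5 ± 3.97% in DM and 62.8 ± 9.64% in NO. The share of *Jun* was 5.80 ± 0.98% in GS and 5.79 ± 0.31% in DM, but 17.8 ± 9.25% in NO, and its lowest NO sample, at 10.4%, was above the highest of the other 6, at 6.91%. The share of *Junb* was 19.6 ± 3.27%, 21.7 ± 3.98% and 19.4 ± 0.76%, close in all media. In the FOS family, which was less abundant, the sum of *Fos*, *Fosb*, *Fosl1* and *Fosl2* per kb was 26.4 ± 6.44 for GS, 42.3 ± 6.34 for DM and 174 ± 137 for NO. *Fos* held the largest part in each medium, with 55.5 ± 2.03% for GS, 58.7 ± 6.69% for DM and 68.2 ± 5.54% for NO. *Fosb* held 5.58 ± 2.41%, 6.96 ± 1.33% and 1.73 ± 0.71%. *Fosl2*, which is not among the 10, held 14.3 ± 0.82% of the family in GS against 6.26 ± 0.88% in DM and 6.72 ± 1.67% in NO. When NO replicate 2 was left out, the mean FOS sum in NO was 96.2 and the JUN sum 693, against 915 with it. The NO shares were then 12.6% for *Jun*, 68.3% for *Jund* and 70.3% for *Fos*. These shares are a description and were not tested.

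**Figure D2:**
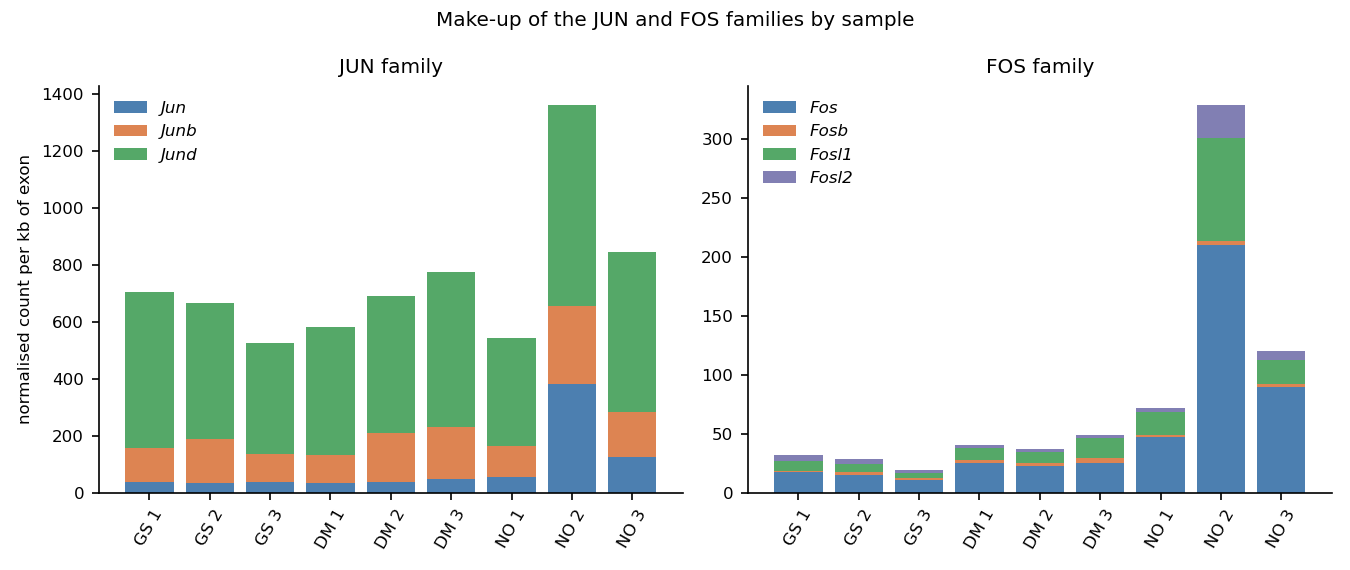
Stacked bars of the JUN family (left) and the FOS family (right) in each of the 9 samples, as normalised counts per kb of exon on a linear axis from 0. The FOS sum reaches 329 in NO replicate 2 and 72.0 in the lowest NO sample, against at most 49.2 in DM.

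*Atf3* encodes a bZIP factor induced by many stresses, which as a homodimer represses transcription and which also pairs with JUN proteins. Its counts were 35, 33 and 45 in GS, 25, 26 and 24 in DM, and 112, 912 and 213 in NO. The 3 DM samples were the lowest and close together, the GS samples lay above them, and every NO sample was above all others. The means were 37.7 ± 6.43, 25.0 ± 1.00 and 412 ± 436 (SD, n = 3). NO exceeded DM by 3.43 ± 0.57 on the log2 scale, 10.8-fold (limma, adjusted p = 0.00466), the largest difference among the 9 genes in this comparison. NO exceeded GS by 2.87 ± 0.57 (limma, adjusted p = 0.00548), and DM against GS was -0.56 ± 0.57 (adjusted p = 0.644). In the fit without NO replicate 2, the difference was 2.58 over DM (limma, adjusted p = 0.00118) and 2.02 over GS (adjusted p = 0.0019). The call over DM was kept in 20 of 20 alternatives and the call over GS in 19 of 19. *Atf3* lies at chr1:191170296-191218039 (minus strand) with no exon of another annotated gene on its exons.

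The promoters of *Fos*, *Jun* and *Atf3*, the genes that rose in NO over both other media, are printed to show which ATF/CREB-like letters each holds. Each is the 250 bases before the RefSeq start (GRCm38.p6), 5′ to 3′ on the strand of the gene. They are reference sequence, not read from mES-D3. Capitals mark TGACG (a CRE core) and TATAAA in *Fos*, TGACATCA (the AP-1-like site of *Jun*) in *Jun*, and TGATGNAA (an ATF4 and CHOP composite site) and TGACG in *Atf3*, both on the opposite strand there. *Fos* is chr12:85473640-85473889 (plus strand), *Jun* is chr4:95052223-95052472 (minus strand) and *Atf3* is chr1:191183334-191183583 (minus strand), a start inside the annotated gene.
Fos: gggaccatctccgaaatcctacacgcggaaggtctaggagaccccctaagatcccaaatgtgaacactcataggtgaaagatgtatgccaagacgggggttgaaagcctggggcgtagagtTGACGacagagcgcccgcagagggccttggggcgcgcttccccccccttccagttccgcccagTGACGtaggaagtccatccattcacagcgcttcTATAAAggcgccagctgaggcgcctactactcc
Jun: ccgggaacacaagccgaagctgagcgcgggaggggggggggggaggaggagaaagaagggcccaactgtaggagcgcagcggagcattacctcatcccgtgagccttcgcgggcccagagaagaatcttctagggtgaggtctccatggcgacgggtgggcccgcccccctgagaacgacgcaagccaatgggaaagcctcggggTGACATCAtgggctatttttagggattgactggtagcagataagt
Atf3: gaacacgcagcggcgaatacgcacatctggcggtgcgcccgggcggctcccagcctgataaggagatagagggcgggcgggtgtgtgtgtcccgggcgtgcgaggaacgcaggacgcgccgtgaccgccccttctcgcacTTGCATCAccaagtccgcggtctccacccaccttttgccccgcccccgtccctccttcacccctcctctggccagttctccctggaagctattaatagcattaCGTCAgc

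Motifs were searched on both strands of 32851 RefSeq windows that run from 250 bases before to 50 after a start, which held 7 of the 10 genes. *Fosl1*, *Egr1* and *Ier2* were not among them. TGACG was found in the windows of 5 genes (*Atf3*, *Egr2*, *Fos*, *Fosb* and *Junb*) and in 20.81% of all windows. *Fos* held it 129 and 66 bases before the start and *Atf3* 7 bases before. The full palindrome TGACGTCA, which contains TGACG, was in none of the 7 and in 1.79% of all windows, and the AP-1 site TGANTCA was in none and in 7.81%. TGACATCA began 45 bases before the start of *Jun* and was in 3.62% of windows. TGATGNAA began 110 bases before the start of *Atf3* and was in 3.97%. Within these windows, the CArG box, bound by serum response factor, was found in *Egr2* alone of the 7 genes and in 1.63% of windows. The ETS core CCGGAA was likewise found in *Egr2* alone and in 14.9%. The EGR site GCGNGGGCG was in *Fosb* and in 5.55%, and TATAAA was in *Fos*, 33 bases before the start, in *Junb*, and in 13.62% of windows. The *Ier3* window held none of these motifs. A match describes letters in a window and shows no binding. Sequence farther from the start was not searched, so a missing match does not show that a gene lacks the site.

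*Egr1* encodes a zinc finger factor whose induction by serum runs mainly through ERK. It measured 16, 13 and 12 in GS, 36, 32 and 52 in DM, and 17, 68 and 34 in NO. Every DM sample was at least 2 times the highest GS sample, and the NO samples spanned the range from just above GS to above DM. The means were 13.7 ± 2.08, 40.0 ± 10.6 and 39.7 ± 26.0 (SD, n = 3). DM against GS was 1.46 ± 0.45 on the log2 scale with a 95% interval of 0.48 to 2.44, an unadjusted p of 0.00699 and an adjusted p of 0.08 in limma, which did not pass. NO against GS was 1.27 ± 0.45 (limma, adjusted p = 0.0658), and NO against DM was -0.19 with a 95% interval of -1.17 to 0.79 (adjusted p = 0.809). DM against GS was called when the NO samples, the most variable, were left out of the fit (limma, adjusted p = 0.0182), when samples were weighted by their spread (0.00994), without NO replicate 1 (0.0265) and without NO replicate 2 (0.0203). NO against GS was 0.79 without NO replicate 2 (limma, adjusted p = 0.216) and was called in 3 of 18 alternatives, namely without NO replicate 1 (adjusted p = 0.00734), with sample weights (0.00278) and with samples scaled to equal totals (0.0474). NO against DM was -0.68 without NO replicate 2 (limma, adjusted p = 0.341). The NO and DM means were close, and the interval of that difference allows a change of about 2-fold either way.

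*Egr2*, the EGR gene known for its role in hindbrain and peripheral nerve, was at the limit of detection. It measured 2, 1 and 4 in GS, 4, 3 and 0 in DM, and 2, 13 and 1 in NO, so that 8 of the 9 samples lay at 4 or below. At this depth a difference between media was not detectable.

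*Ier2* encodes a small nuclear protein of the immediate early response, and its transcript was the most abundant of the 10. It measured 1370, 1508 and 962 in GS, 1452, 1352 and 1934 in DM, and 1117, 1007 and 1375 in NO. The 3 media overlapped, and in contrast to most of the others NO replicate 2 was the lowest NO sample. No comparison was called. NO against DM was -0.43 ± 0.20 on the log2 scale (limma, adjusted p = 0.166), and DM against GS was 0.31 ± 0.20 (adjusted p = 0.431). Without NO replicate 2, NO against DM was -0.33 and NO against GS -0.02.

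*Ier3* encodes IEX-1, a short-lived protein that is both a target and a regulator of ERK and that affects survival after stress. It was the gene that moved in the opposite direction: 298, 161 and 222 in GS, 222, 386 and 560 in DM, and 103, 121 and 98 in NO. The NO samples were the 3 lowest and the most alike, whereas GS and DM overlapped between 222 and 298. The means were 227 ± 68.6, 389 ± 169 and 107 ± 12.1 (SD, n = 3). In NO it fell by 1.76 ± 0.31 on the log2 scale against DM (limma, adjusted p = 0.0065), and the call was kept in 20 of 20 alternatives, with values from -2.11 to -1.45, and -1.85 without NO replicate 2. Against GS the log2 fold change was -1.03 ± 0.31 (limma, adjusted p = 0.0385), a call kept in 9 of 19 alternatives. It was lost without GS replicate 1 (-0.82, limma adjusted p = 0.141), GS replicate 3 (adjusted p = 0.105), DM replicate 2 (0.0581), NO replicate 1 (0.054), NO replicate 2 (-1.12, 0.0529) or NO replicate 3 (0.105). It was also lost with a replicate block (limma, adjusted p = 0.0533), without the mean-variance trend (0.0805), with no minimum mean (0.0556) and with samples scaled to equal totals (0.0573). DM against GS was 0.72 ± 0.31, with an unadjusted p of 0.0413 and an adjusted p of 0.227 in limma. *Ier3* lies at chr17:35821684-35822923 (plus strand), in 2 exon blocks.

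**Figure D3:**
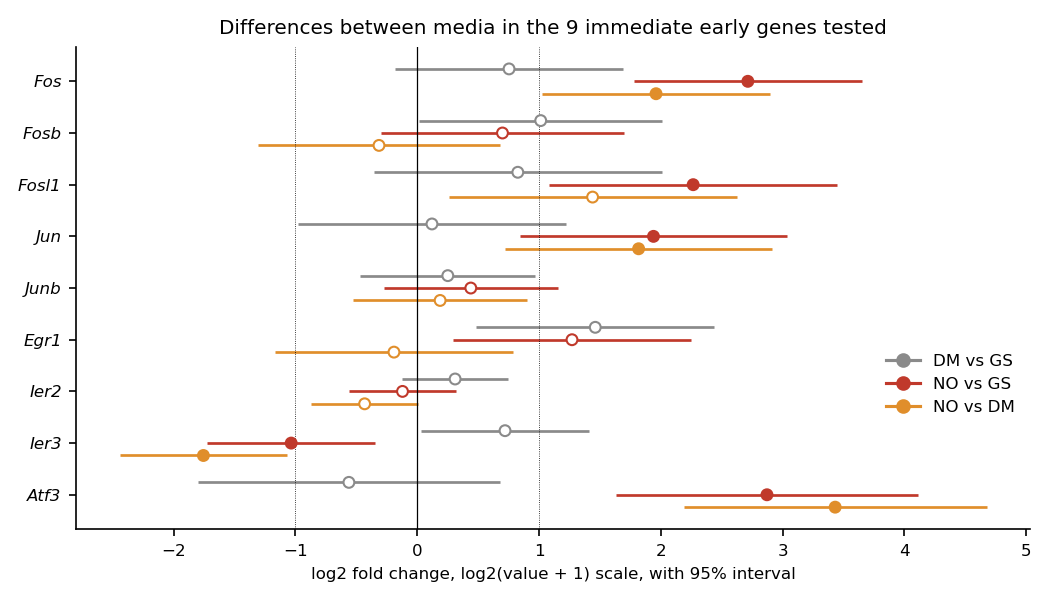
Log2 fold changes on the log2(value + 1) scale (horizontal axis) of the 9 genes tested in DM against GS, NO against GS and NO against DM. Points are limma estimates, lines 95% intervals, filled points pass both thresholds, and dotted lines mark a 2-fold change. Filled points lie to the right for *Fos*, *Fosl1*, *Jun* and *Atf3* and to the left for *Ier3*, and DM against GS has no filled point.

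The NO samples differed among themselves mainly in degree. Relative to the mean of the DM samples, *Fos* was 1.94, 8.58 and 3.66 times as high in NO replicates 1, 2 and 3. *Jun* was 1.42, 9.65 and 3.16 times as high, and *Atf3* was 4.48, 36.5 and 8.52 times as high. In all 3 of these genes replicate 1 was the lowest, replicate 3 came between, and replicate 2 was the highest. *Ier3* showed no such spread, at 0.265, 0.311 and 0.252 of the DM mean. NO replicate 2 exceeded the mean of the other NO samples 5.61-fold in *Atf3*, 4.45-fold in *Fosl1*, 4.22-fold in *Jun*, 3.07-fold in *Fos*, 2.67-fold in *Egr1* and 2.07-fold in *Junb*. The ratio was 1.46 in *Fosb*, 1.20 in *Ier3* and 0.808 in *Ier2*. With 3 samples in the group, the height of the NO means of *Fos*, *Jun*, *Fosl1* and *Atf3* rested largely on this replicate, and their direction was the same without it.

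**Figure D4:**
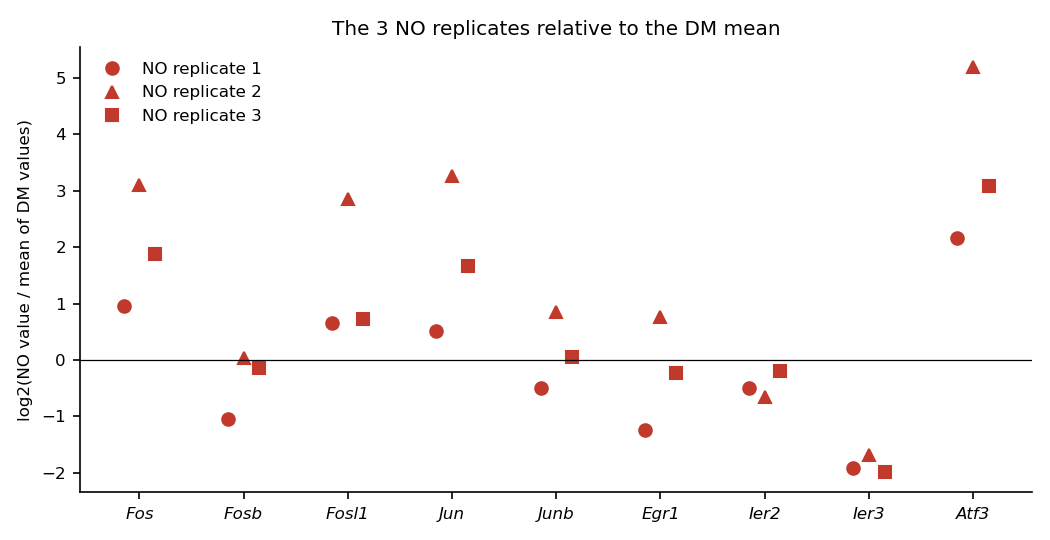
Each NO sample relative to the mean of the 3 DM samples, on a log2 axis, for the 9 genes tested. The 3 points of *Fos*, *Fosl1*, *Jun* and *Atf3* lie above 0 and those of *Ier3* and *Ier2* below it, with NO replicate 2 highest in all but *Ier2*.

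Per kb of exon, the order of the mean levels in GS was *Ier2* (841), *Ier3* (201), *Junb* (124), *Jun* (36.1), *Atf3* (17.5), *Fos* (14.6), *Fosl1* (6.56), *Egr1* (3.05), *Fosb* (1.44) and *Egr2* (0.687). *Ier3* and *Junb* overlapped between samples, as did *Atf3* and *Fos*, and *Fosb* and *Egr2*, whereas *Jun* was clear of both neighbours. In DM the order of the upper genes was the same up to *Jun*, after which *Fos* (24.5) lay above *Fosl1* (12.1) and *Atf3* (11.6), and these last overlapped. In NO, *Ier2* (766) was followed by *Atf3* (191), *Jun* (188), *Junb* (178) and *Fos* (116), which overlapped from sample to sample, and *Ier3* (94.9) was in the sixth place. The second place of *Atf3* rested on NO replicate 2. Over NO replicates 1 and 3, *Ier2* (819) was followed by *Junb* (131), *Jun* (90.6), *Ier3* (88.9), *Atf3* (75.4) and *Fos* (68.7).

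Of 35 other immediate early genes tested, 2 were called higher in DM than in GS, *Myc* (a growth-promoting transcription factor, by 1.54 ± 0.22 on the log2 scale) and *Trib1* (1.32 ± 0.21), and 0 lower, where 2.94% and 1.27% of all genes were. In NO, 7 were higher than in GS, among them *Btg2*, *Arc* and *Hbegf*, where 10.1% of all genes were, and 4 were higher than in DM, among them *Plk2*, *Btg2* and *Cyr61*, where 6.78% were. With NO replicate 2 left out, 5 were higher than in GS, *Hbegf* no longer among them, and the same 4 were higher than in DM. Of all 18156 genes tested, 1226 and 628 were higher in that fit. NO replicate 2 was the highest of the 9 samples in 24 of the 35. *Cyr61*, a matricellular gene driven by YAP and serum response factor, measured 123, 103 and 78 in DM and 314, 1937 and 456 in NO, the same order of NO replicates as in *Fos*, *Jun* and *Atf3*. *Btg2*, an antiproliferative target of p53, measured 1271, 1117 and 1168 in DM and 2463, 6717 and 3423 in NO. The medians of the list were 0.07, 0.60 and 0.45 in DM against GS, NO against GS and NO against DM.

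The ERK feedback genes are transcribed when ERK is active, and include phosphatases and Sprouty proteins that inhibit the pathway as well as ETS factors. Of 13 tested, 5 were higher in DM than in GS, where 2.94% of all genes were, and 5 higher in NO than in GS, where 10.1% were, while 2 were lower in NO than in DM, where 1.77% were. When NO replicate 2 was left out, 4 were higher in NO than in GS and 1 was lower in NO than in DM. The counts over all 18156 genes were then 1226 and 178. *Dusp6*, the ERK phosphatase, measured 300, 507 and 389 in GS, 2090, 1755 and 2194 in DM, and 1356, 1282 and 1615 in NO. It was 2.36 ± 0.19 higher in DM than in GS on the log2 scale (limma, adjusted p = 7.21e-05). *Spry4* rose by 2.46 ± 0.28 in DM over GS (limma, adjusted p = 0.000368) and fell by 1.23 in NO against DM, and *Etv1* fell by 1.27. The call of *Spry4* in NO against DM was lost without NO replicate 2 (-0.99, limma adjusted p = 0.0445, under 2-fold). *Dusp4*, an ERK phosphatase, measured 37, 59 and 30 in GS, 326, 281 and 375 in DM, and 149, 552 and 245 in NO, and *Dusp2*, another phosphatase, measured 5, 3 and 0, then 7, 6 and 11, then 15, 162 and 54. NO replicate 2 was the highest of the 9 samples in 6 of the 13, among them these phosphatases, and the lowest NO sample in *Spry4* (2684, 1614 and 2646), *Etv1* (451, 227 and 335) and *Dusp6*. A test of the difference between this list and the immediate early genes was not made.

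Of the upstream genes, 0 of 13 RAF, MEK, ERK and RSK kinases, 0 of 6 SRF, TCF and MRTF genes and 0 of 2 EGR corepressors were called in any comparison. Of 11 JNK and p38 kinase genes, *Mapk12* was higher in DM and in NO than in GS and *Map2k6* was lower in NO than in GS. In NO against DM, 0 were called. Over all genes, 2.94% were higher in DM and 10.1% in NO than in GS, and 1.64% were lower in NO than in GS. In the fit without NO replicate 2, *Map2k6* was no longer called (-0.98, under 2-fold). Of 16 other AP-1 dimer partners tested, 14 were not called in either NO comparison. Over all genes, 10.1% were higher in NO than in GS and 6.78% higher than in DM. *Mafk*, a small MAF factor of this list, was higher in NO than in GS (1.52 ± 0.33 on the log2 scale, limma adjusted p = 0.00882) and than in DM (1.32 ± 0.33, adjusted p = 0.0246). *Mafk* measured 50, 57 and 56 in DM and 104, 230 and 106 in NO. Without NO replicate 2, it was 1.15 above GS (limma, adjusted p = 0.0198) and 0.94 above DM, not called (adjusted p = 0.0685). Of 12 genes of the ATF4 and CHOP pathway, which share the stress response that induces *Atf3*, 0 were higher in any comparison, 2 were lower in NO than in GS (*Psat1* and *Vldlr*) and 3 were lower in NO than in DM (*Psat1*, *Phgdh* and *Chac1*), where 1.64% and 1.77% of all genes were. With NO replicate 2 left out, *Vldlr* alone was lower than in GS, and *Psat1* and *Phgdh* were lower than in DM. Over all 18156 genes, 229 and 178 were lower in that fit. *Ddit3*, which encodes CHOP, measured 205, 223 and 167 in DM and 242, 620 and 263 in NO and was not called.

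Of 16 genes known as AP-1 targets, *Plaur*, the urokinase receptor, was higher and *Cd44*, a hyaluronan receptor, lower in DM than in GS, where 2.94% and 1.27% of all genes were. In NO, 5 were higher than in GS, among them *Plaur*, *Krt18* and *Lif*, where 10.1% of all genes were, and 4 were higher than in DM, among them *Cd44*, *Lif* and *Plat*, where 6.78% were. When NO replicate 2 was left out, 2 were higher than in GS (*Plaur* and *Krt18*) and 3 higher than in DM (*Cd44*, *Lif* and *Plat*). The counts over all 18156 genes were then 1226 and 628. *Lif* itself measured 201, 283 and 163 in GS, 165, 199 and 193 in DM and 353, 884 and 492 in NO. *Cd44* measured 14, 11 and 9 in DM and 65, 280 and 88 in NO, a log2 difference of 3.28 ± 0.48, and of 2.66 without NO replicate 2. In both genes NO replicate 1 was the lowest and replicate 2 the highest NO sample.

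**Figure D5:**
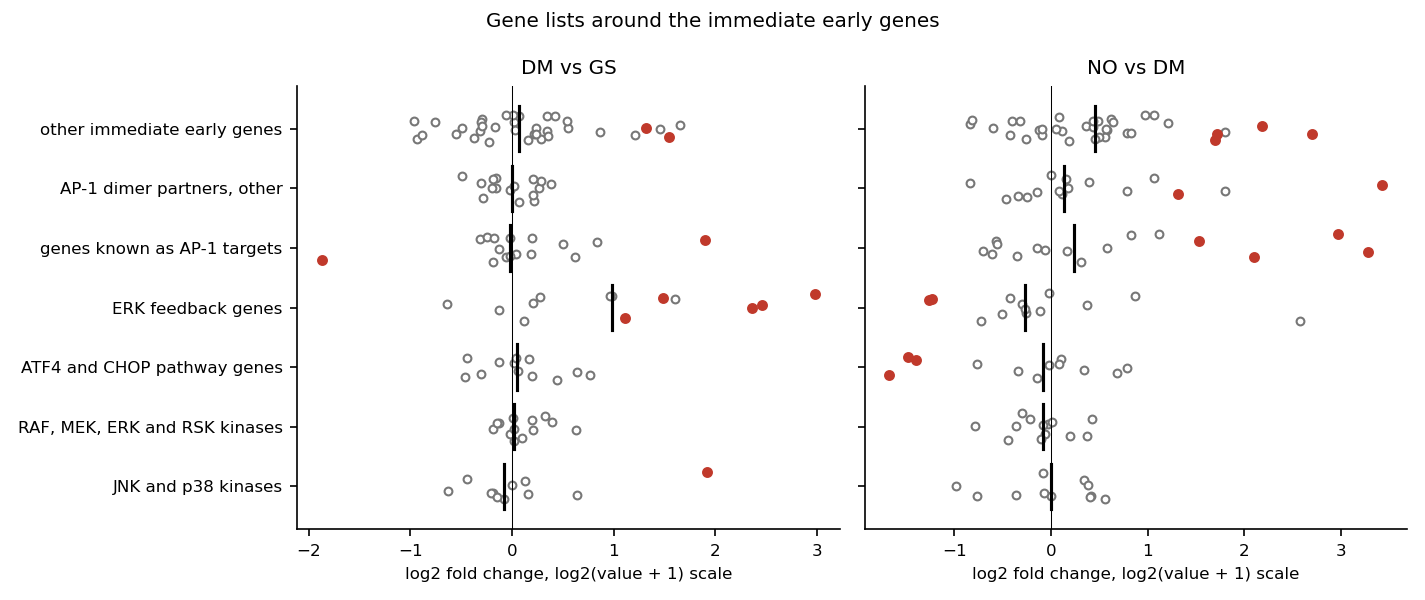
Log2 fold changes (horizontal axes, log2(value + 1) scale) of the genes of 7 lists in DM against GS and NO against DM. Each point is a gene, red points pass both thresholds, black bars are medians, and the vertical spread within a list has no meaning. In DM against GS, red points lie to the right in the ERK feedback, immediate early, AP-1 target and JNK and p38 lists, and to the left for *Cd44*. In NO against DM, they lie to the right in the immediate early, AP-1 partner and AP-1 target lists. They lie to the left there in the ERK feedback list and in the ATF4 and CHOP list.

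Markers of other cell types moved in both directions. Of all genes tested, 2.94% were called higher and 1.27% lower in DM than in GS. The shares were 10.1% and 1.64% in NO against GS, and 6.78% and 1.77% in NO against DM. In lists this short, a single call weighs heavily, and the lists were not tested against these shares. Of 10 trophoblast markers tested, 3 were lower in DM than in GS (*Tfap2c*, *Cdx2* and *Eomes*). In NO, 3 were higher than in GS (*Krt7*, *Krt18* and *Hand1*) and 2 lower (*Cdx2* and *Eomes*), and 4 were higher than in DM, among them *Tfap2c*, *Krt7* and *Gata3*. In the fit without NO replicate 2, these counts were 3, 2 and 3. Over all 18156 genes, that fit called 1226 higher and 229 lower than in GS, and 628 higher than in DM. The list had sums between 1650 and 1700 for GS, 1148 and 1299 for DM, and 1419 and 3027 for NO. The highest NO sum of this list, and of the endoderm and fibroblast lists below, was that of NO replicate 2. *Krt18* is in this list and in that of AP-1 targets. Of 7 primitive endoderm markers tested, *Gata6* was higher in NO than in both other media, and *Lama1* was lower in DM and in NO than in GS. Without NO replicate 2, *Gata6* in NO against DM was the 1 call left in NO (2.32, limma adjusted p = 0.0498). The sums of this list were 12261 to 13021 in GS, 7102 to 9414 in DM and 9497 to 12163 in NO. *Lama1* was a large part of them, at 8149, 7405 and 7918 in GS, 3476, 3465 and 2732 in DM, and 4372, 2874 and 3924 in NO. The other 6 markers tested were not called in DM against GS. Of 6 fibroblast and feeder markers tested, 1, *Thy1*, was higher in DM than in GS (1.70 ± 0.18 on the log2 scale, limma adjusted p = 0.000303). In NO, 3 were higher than in GS, *Thy1* among them, and 1, *Col1a1*, was higher than in DM. *Thy1* measured 59, 59 and 60 in GS, 211, 208 and 168 in DM, and 158, 176 and 166 in NO. The sums of the list were 153 to 169 in GS, 284 to 294 in DM and 266 to 522 in NO. With NO replicate 2 left out, *Thy1* alone was higher than in GS and 0 were called against DM (limma; *Col1a1* adjusted p = 0.0784). The fibroblast markers *Lum*, *Dcn*, *Postn* and *Prrx1* were at 6 or below in every sample, and the endoderm markers *Foxa2* and *Afp* at 5 or below. The part of these cell types in the changes of *Fos*, *Jun*, *Fosl1* and *Atf3* was not tested.

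The genes most like *Fos*, *Egr1* and *Atf3* over the 9 samples were sought among 11339 genes with a mean of at least 50, by Pearson's r of log2(value + 1). Nearest to *Fos* were *Sgsm2* (r = 0.995), *Adc* (0.993) and *Notch3* (0.993). Nearest to *Atf3* were *Dzip1* (0.998), *Lrrc57* (0.997) and *Arap2* (0.994). Nearest to *Egr1* were *Arl4c*, *Foxn3* and *Msantd3* (0.965 each). *Dzip1* measured 422, 453 and 401 in DM and 831, 2397 and 1222 in NO, with the replicate order of *Atf3*. All 9 points share the libraries, NO replicate 2 among them, and the best of many genes is always high, so these values are a description.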

How the data were processed

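Total RNA of 9 mES-D3 samples was depleted of ribosomal RNA and sequenced on an Ion Torrent Proton. The submitters' processing notes name FastQC 0.11.2, STAR 2.4.0a, featureCounts 1.4.5-p1 of Subread, DESeq2 and the GRCm38 (mm10) build. The deposited values are a score per gene. The authors had scaled each read count by a DESeq2 size factor and rounded the quotient, so that raw counts were not used here and no count model was fitted. Reads that fit several genes were not counted by the authors, and use of the strand was not stated. Groups and replicate numbers came from the labels. Each of the 9 sample columns was matched by title, 0 were left out, and 1 column with the sum over samples was not used.

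For the 18156 genes whose mean exceeded 5, log2(value + 1) was fitted with limma 3.58.1 in R 4.3.3, media as 3 groups, no covariate and a mean-variance trend. All tests were two-sided and p-values were adjusted by Benjamini-Hochberg over all genes tested. The F test used the adjusted p alone. The fit was checked on simulated counts with known changes and the same dispersion in every gene and sample. These counts held no outlying sample like NO replicate 2, so the check does not cover that case. Exon lengths and overlaps came from GENCODE M21 and promoters from RefSeq, both on GRCm38. For all levels per kb, the lengths kept exon stretches that other genes overlap. Depth was estimated from the column total and the value of 1 read, between 0.701 and 1.32, and limits the precision of genes at a few reads, such as *Egr2*.

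All 10 immediate early genes were named. From each other list, at most the 3 called genes with the smallest adjusted p were named for each comparison and direction. *Ddit3*, *Jund* and *Fosl2*, the genes that overlap *Fosl1*, *Jun* and *Junb*, and the markers *Lum*, *Dcn*, *Postn*, *Prrx1*, *Foxa2* and *Afp* were named outside this rule, after their values were seen. The lists, medians and levels per kb without NO replicate 2 were added after seeing the data. A result of the AP-1 partner list is not reported here. Members and lists were chosen with earlier results of these data known. Deviations from the group means of samples with the same number correlated at 0.159, 0.167 and 0.296 between NO and DM. The values were -0.178, 0.0216 and -0.232 between DM and GS, and -0.0462, 0.0503 and -0.106 between NO and GS. Samples of unlike number were not compared and the labels give no pairing. Whether the numbers pair any samples was therefore not settled, and the main fit held no replicate block. The alternatives tried were other pseudocounts and minimum means, a replicate block, no trend, sample weights, 2 other scalings, each sample left out, 6 samples only and no minimum fold.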

Additional observations from a re-analysis of the deposited data

How the results depend on the processing

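The calls of *Atf3* in NO and of *Ier3* in NO against DM were kept in every alternative run. The number of the 9 genes called in NO against GS, 5, was 3 without the trend and 2 to 5 when samples were left out. In NO against DM, 4 became 2 to 5 when samples were left out. In DM against GS, 0 became 1 (*Egr1*) with sample weights, 1 with only the 6 samples compared and 0 to 1 when samples were left out. The F test called 3 in place of 5 without the trend and 3 to 6 when samples were left out. With the replicate block the counts were 0, 4 and 4, and 5 in the F test. The NO and DM samples fitted alone with the block, an alternative added after seeing the data, gave 4. Of the single calls, the block ended only that of *Ier3* in NO against GS (limma, adjusted p = 0.0533). Signs changed only in differences that were not called: *Fosb* in NO against DM was 0.034 with sample weights, and leaving out samples gave -0.31 to 0.011 for *Ier2* in NO against GS, -0.17 to 0.51 for *Junb* in NO against DM, -0.014 to 0.23 for *Jun* in DM against GS and -0.68 to 0.29 for *Egr1* in NO against DM.

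Over all genes, a minimum mean of 50 called 505 in place of 763 in DM against GS, 1206 in place of 2127 in NO against GS and 936 in place of 1552 in NO against DM, and no minimum fold called 1215, 3640 and 2587. NO against DM gave 2533 with sample weights, 912 with 6 samples and 806 (without NO replicate 2) to 2512 (without NO replicate 1). The F test gave 9365 with weights and 2569 to 5705 when samples were left out, in place of 4227. Quantile normalisation moved the share of higher calls from 86.0% to 67.5% in NO against GS and from 79.3% to 65.1% in NO against DM, and no minimum fold moved them to 66.9% and 63.2%. Weights were estimated gene by gene and ran from 0.248 (NO replicate 2) to 5.52 (NO replicate 3). The causes were not tested.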
